A study of Mus musculus with 360 samples.

Results

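The isomer difference in liver at 10 ppm is the change with 1,4-dichlorobenzene (1,4-DCB) from its own 0 ppm animals minus the change with 1,2-dichlorobenzene (1,2-DCB) from its own 0 ppm animals. The isomers carry the same 2 chlorine atoms on a benzene ring, across the ring from each other in 1,4-DCB and on neighbouring carbons in 1,2-DCB. The members were chosen from the labels alone, as the liver (left lobe) libraries of the 4 groups that carry the status of use in the analysis. They are 24 libraries of 61 such liver libraries, 326 such libraries of all tissues and 360 libraries in the series. All came from female B6D2F1/Crl (BDF-1) mice aged 9 weeks, with no transgene or further agent named, and tissue was taken on study day 5. There were 4 libraries at 10 ppm 1,4-DCB, 7 at 0 ppm of the 1,4-DCB series, 4 at 10 ppm 1,2-DCB and 9 at 0 ppm of the 1,2-DCB series, each from 1 animal by its number. Animals of one group share a compound, a concentration and an exposure series, and the labels give no hour of collection. A further 6 libraries of these groups, with 0.094 to 0.128 M counts (mega counts), are marked for low depth and were left out of the main comparison.

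Both isomers are oxidised in liver by cytochrome P450 enzymes to reactive epoxides and phenols. The nuclear receptors CAR and PXR raise transcription of P450 genes and of the genes that serve them: Por encodes the reductase that passes electrons to every microsomal P450, and Alas1 encodes the first enzyme of haem synthesis. Many liver genes also follow the time of day. In that system Dbp and Hlf encode PAR bZIP activators, Nfil3 encodes a repressor that binds the same D-box element, and Cry1 encodes a repressor of the CLOCK-BMAL1 activator, which itself binds E-boxes.

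The assay was TempO-Seq on the S1500+ mouse panel, in which pairs of oligonucleotides joined on a target RNA are amplified and sequenced, so the value of a gene is the count of a probe. The 24 libraries held 14.1 to 37.2 M counts with a median of 19.3 M. The group medians were 31.42 M at 10 ppm 1,4-DCB, 27.74 M at 0 ppm 1,4-DCB, 18.54 M at 10 ppm 1,2-DCB and 17.28 M at 0 ppm 1,2-DCB, so depth differed between the series. These totals exceed the reads, since the deposited counts of some probes appear multiplied by a factor (see the processing section). With those factors undone the group medians were 15.83, 13.65, 9.21 and 8.29 M in the same order. Levels are given in CPM, the count of a probe relative to the size of its TMM-scaled library. A CPM value depends on its probe, and levels are therefore set side by side only within a gene. The summed level of 10 hepatocyte marker probes, none of them at 0, was 205700 to 245500 CPM at 10 ppm 1,4-DCB, 223300 to 262800 at 0 ppm 1,4-DCB, 229500 to 252700 at 10 ppm 1,2-DCB and 185100 to 261300 at 0 ppm 1,2-DCB, so the markers of the labelled tissue were present in every group. Fewer cells of a type and less RNA per cell cannot be told apart in such whole-tissue samples.

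At 10 ppm the isomers differed in 41 probes of 40 genes, and in 40 of these probes the 1,2-DCB change was the larger in size. The median size of change over the 41 was 0.224 with 1,4-DCB and 0.856 with 1,2-DCB on the log2 scale. Over all probes tested these medians were 0.108 and 0.188. The 20 probes on the negative side (a 1,4-DCB change below the 1,2-DCB change) were led by Por, the clock output gene Hlf, the thymidine kinase gene Tk1, Foxo3, Gstm2 and Alas1. The 21 probes on the positive side were led by the cell cycle inhibitor gene Cdkn1a, by Chka, Clpx, Net1, Dio1 and by the repressor gene Nfil3. Of the 41 probes, 0 passed the test against the 0 ppm animals of the same series with 1,4-DCB and 39 with 1,2-DCB. In 36 the estimates of the isomers had opposite signs. Picking probes for a large difference favours a large change in a single series and opposite signs, so these counts follow in part from the choice. The share of opposite signs over all probes was not counted. A probe that did not pass is not thereby shown to be unchanged.

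The test was edgeR's quasi-likelihood test over the 2601 probes with enough counts, with the Benjamini-Hochberg adjustment, and a probe was called at an adjusted p under 0.05. The 41 calls are 1.58% of the probes tested, with 0.807% higher and 0.769% lower; 352 probes (13.5%) had an unadjusted p under 0.05. For 1,4-DCB against its 0 ppm animals edgeR called 0 probes and DESeq2 called 0, while 76 (2.92%) had an unadjusted p under 0.05. For 1,2-DCB against its 0 ppm animals it called 5.34% of the probes, 69 higher (2.65%) and 70 lower (2.69%). The calls numbered 7 when the 11 excluded liver libraries were put back and 7 when the level of Dbp was a covariate in the fit, 62 by DESeq2, and ranged from 27 to 52 when single libraries were left out. Over all probes the median difference was 0.05 on the log2 scale.

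At 10 ppm 1,4-DCB the 4 libraries lay apart from their 0 ppm libraries in 0 of the 41 called probes, against 0.423% of all probes tested. At 10 ppm 1,2-DCB they lay apart from their 0 ppm libraries in 26 of the 41, against 3.04% of all probes. The exposed groups lay apart from each other in 35 of the 41, against 10.1% of all probes. In 16 of the 41 the 1,2-DCB libraries at 10 ppm lay outside all 3 other groups, and the 1,4-DCB libraries did so in 0. The share over all probes was not counted for this. It can be at most 3.04% for 1,2-DCB and 0.423% for 1,4-DCB, since it requires lying apart from the own 0 ppm libraries. These shares follow in part from how the probes were picked, since the 41 were taken for a difference among the same libraries.

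**Figure D1:**
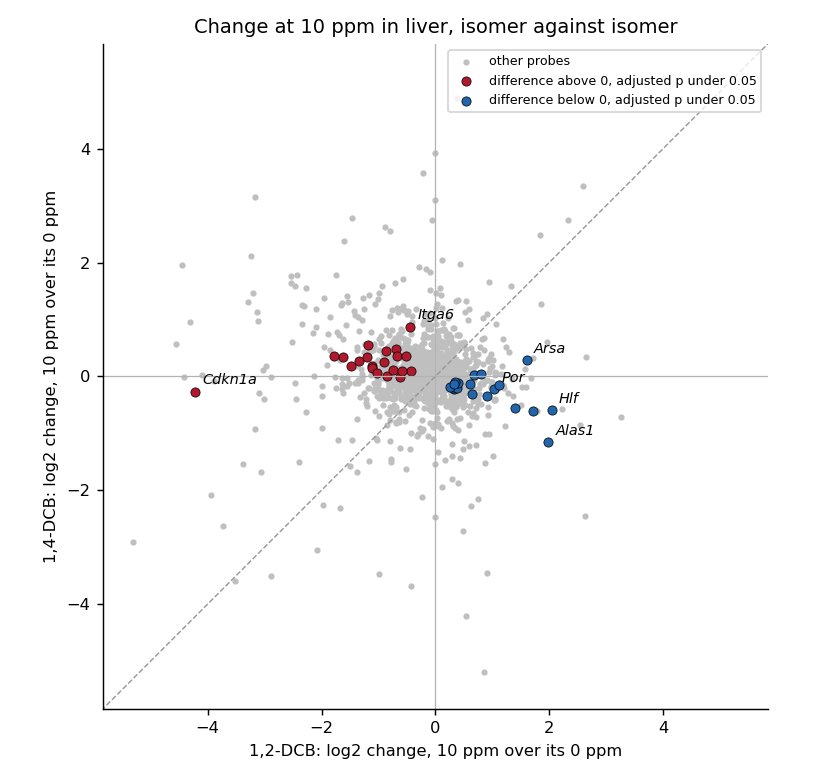
Log2 change at 10 ppm over 0 ppm with 1,4-DCB (vertical axis) against that with 1,2-DCB (horizontal axis) for the 2601 probes tested, with 1 point per probe and a dashed line of equal change. Called probes range from Cdkn1a at -4.22 to Hlf at 2.05 with 1,2-DCB, and from Alas1 at -1.15 to Itga6 at 0.88 with 1,4-DCB. The 2 axes use different animals, and called probes are coloured by the sign of the difference.

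Genes that serve P450 enzymes rose with 1,2-DCB, and their isomer differences lay below 0. Por, in animal order, had 96.4, 89.5, 113.2 and 105.7 CPM at 10 ppm 1,4-DCB, against 89.4 to 147.6 with a median of 114.5 at its 0 ppm, and 260.3, 191, 275 and 263 CPM at 10 ppm 1,2-DCB, against 89.8 to 144.6 with a median of 117.4 at its 0 ppm. The 1,2-DCB libraries at 10 ppm all lay above every library of the other 3 groups, which overlapped one another. The isomer difference of Por was -1.26 ± 0.20 (log2, SE; edgeR adjusted p = 5.97e-05), made of -0.22 with 1,4-DCB and 1.04 with 1,2-DCB (adjusted p = 1.42e-07). Alas1, the haem synthesis gene, had 1.43, 2.47, 1.55 and 4.00 CPM at 10 ppm 1,4-DCB, against 2.97 to 6.88 with a median of 4.87 at its 0 ppm, and 8.15, 4.30, 22.15 and 13.3 CPM at 10 ppm 1,2-DCB, against 1.49 to 5.94 with a median of 2.395 at its 0 ppm. The exposed groups of the isomers did not overlap, but each overlapped its own controls. Its difference was -3.13 ± 0.68 (edgeR adjusted p = 0.00583); the other Alas1 probe gave -1.35 and was not called (adjusted p = 0.165).

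Cyp2a5, a coumarin hydroxylase that CAR regulates, had 770.5, 677, 765.5 and 689.8 CPM at 10 ppm 1,4-DCB, against 494 to 1794 with a median of 955 at its 0 ppm, and 3458, 1960, 1165 and 3059 CPM at 10 ppm 1,2-DCB, against 517 to 1249 with a median of 849 at its 0 ppm. Of the exposed 1,2-DCB animals 3 lay above every other library and the remaining one lay within its controls. The difference was -1.97 ± 0.47 (edgeR adjusted p = 0.0127), and it lost its call without 1,2-DCB animal 201 (adjusted p = 0.0627). Gstm2, a glutathione transferase, had 209, 148.3, 208 and 170.1 CPM at 10 ppm 1,4-DCB, against 166 to 355 with a median of 196 at its 0 ppm, and 362, 279.6, 270 and 398 CPM at 10 ppm 1,2-DCB, against 153.2 to 205 with a median of 173 at its 0 ppm. The 1,2-DCB groups did not overlap, and the difference was -1.25 ± 0.27 (edgeR adjusted p = 0.00537). Reads of Cyp2a5 and Gstm2 may be shared with near-identical relatives, and their identity is uncertain to that extent.

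The listed CAR and PXR targets had 36 probes tested, of which 4 were called on the negative side (Por, Gstm2, Alas1 and Cyp2a5), against 0.769% of all probes, and 0 on the positive side. Their median difference was -0.28, and 7 of 36 estimates were above 0. With 1,2-DCB alone 9 rose, against 2.65% of all probes, and 1 fell, against 2.69%. Between the control groups 3 of the 36 were called, Cyp2c55 and Cyp3a11 higher in the 1,4-DCB series and Cyp3a16 lower, against 0.577% of all probes. The genes most used as markers of these receptors were outside the calls. Cyp2b10, the P450 gene most responsive to CAR, had 61.55, 55.05, 55.7 and 27.3 CPM at 10 ppm 1,4-DCB, against 52.9 to 101.5 with a median of 70.7 at its 0 ppm, and 50.8, 71.3, 51.2 and 61.85 CPM at 10 ppm 1,2-DCB, against 28.85 to 82.5 with a median of 67.65 at its 0 ppm. All 4 groups overlapped, and the difference was -0.50 with a 95% interval of -1.24 to 0.245 (edgeR adjusted p = 0.616). Cyp3a11, the main PXR target, gave -0.43 with an interval of -0.92 to 0.07 (adjusted p = 0.454). These intervals are not adjusted for the number of probes, and they leave room for a difference on the negative side.

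The listed targets of the aryl hydrocarbon receptor had 7 probes, of which 0 were called by edgeR in the isomer difference; all 7 estimates were below 0, with a median of -0.51. Cyp1a2 gave -0.39 with an interval of -0.69 to -0.09 (edgeR adjusted p = 0.194), and Cyp1a1 gave -0.68 with an interval of -2.31 to 0.95 (adjusted p = 0.789). Among 29 probes of NRF2 targets, genes of the oxidant and electrophile response, 1 was called, against 1.58% of all probes. Their median was -0.12. The quinone reductase gene Nqo1 gave -0.51 (adjusted p = 0.366) and the epoxide hydrolase gene Ephx1 gave 0.00 with an interval of -0.29 to 0.29 (adjusted p = 0.997). The Ephx1 interval is among the narrower ones and does not reach a difference of 1 log2 unit in either direction. Cyp2e1, a P450 that oxidises small solvents, gave -0.55 with an interval of -1.002 to -0.10 (adjusted p = 0.244). Cyp7a1, the rate-limiting enzyme of bile acid synthesis, gave -1.72 with an interval of -2.95 to -0.49 and was not called (edgeR adjusted p = 0.173), although it was called for 1,2-DCB alone at 1.53 (adjusted p = 0.0146).

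**Figure D2:**
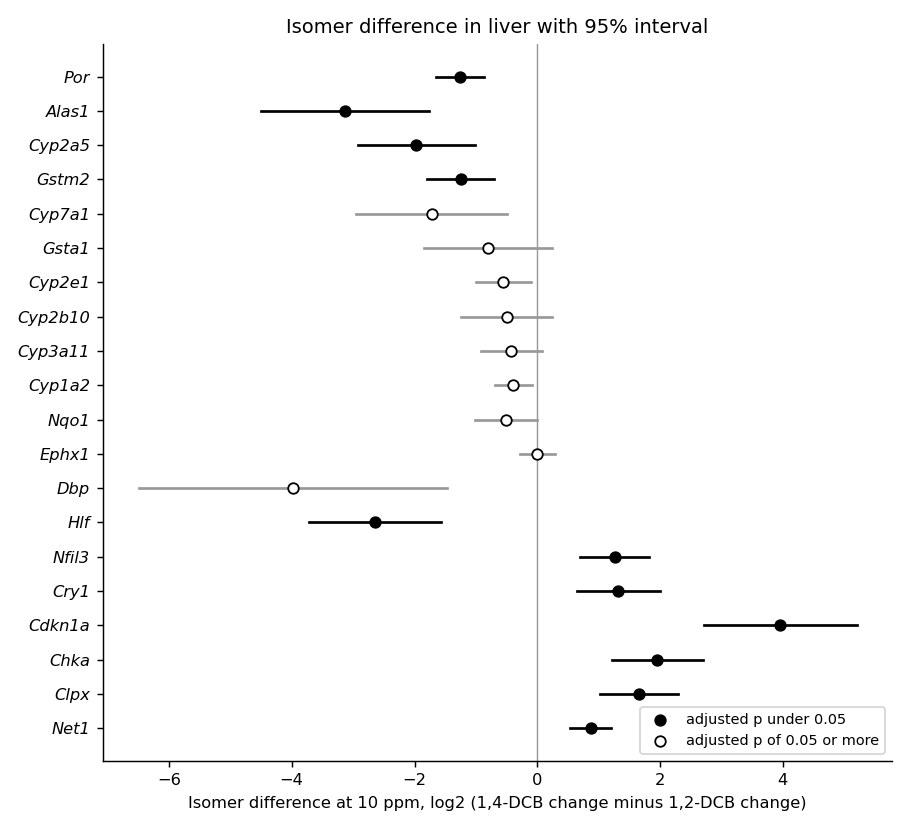
Isomer difference at 10 ppm (log2, 1,4-DCB change minus 1,2-DCB change, horizontal axis) for 20 genes, with bars for the 95% interval of the edgeR fit, not adjusted for the number of probes. Filled points passed the adjusted threshold, and open points, among them Cyp2b10 at -0.50 and Dbp at -3.98, did not.

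Among the clock genes, Hlf and Dbp, the genes of D-box activators, rose with 10 ppm 1,2-DCB, and the repressor genes Nfil3 and Cry1 fell. The promoters of both called repressor genes are shown because each holds a known clock element. They are RefSeq windows on GRCm38.p6, 250 bases before to 50 bases after the annotated start. The Cry1 window is chr10:85185005-85185304 on the minus strand, with an E-box (CACGTG, its own reverse complement) in capitals 60 bases before the start. The Nfil3 window is chr13:52980990-52981289 on the minus strand, with the element of ROR and REV-ERB receptors (TAGGTCA) in capitals 12 bases before the start, read there as its reverse complement TGACCTA.
Cry1: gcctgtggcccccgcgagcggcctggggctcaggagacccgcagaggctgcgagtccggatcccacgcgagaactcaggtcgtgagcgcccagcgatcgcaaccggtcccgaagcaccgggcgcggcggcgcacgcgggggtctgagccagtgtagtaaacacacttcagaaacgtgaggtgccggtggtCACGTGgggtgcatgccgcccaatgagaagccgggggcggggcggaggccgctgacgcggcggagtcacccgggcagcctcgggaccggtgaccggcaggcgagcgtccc
Nfil3: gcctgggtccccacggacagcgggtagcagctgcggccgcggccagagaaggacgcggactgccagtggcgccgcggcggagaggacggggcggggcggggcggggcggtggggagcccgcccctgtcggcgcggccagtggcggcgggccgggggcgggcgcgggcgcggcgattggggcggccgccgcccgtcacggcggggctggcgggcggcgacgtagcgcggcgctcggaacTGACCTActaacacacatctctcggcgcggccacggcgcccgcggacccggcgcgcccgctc

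Hlf had 3.49, 3.59, 1.58 and 3.87 CPM at 10 ppm 1,4-DCB, against 2.21 to 6.505 with a median of 4.65 at its 0 ppm, and 19.45, 13.6, 14.1 and 18.1 CPM at 10 ppm 1,2-DCB, against 2.58 to 4.99 with a median of 4.27 at its 0 ppm. All 4 exposed 1,2-DCB libraries lay above every other library, and the other 3 groups overlapped. The difference was -2.64 ± 0.54 (edgeR adjusted p = 0.00387), from -0.59 with 1,4-DCB and 2.05 with 1,2-DCB. Nfil3, the gene of the competing repressor, had 89.1, 90.2, 110.7 and 61.9 CPM at 10 ppm 1,4-DCB, against 56.3 to 110 with a median of 76.9 at its 0 ppm, and 33.4, 33.9, 44.3 and 46.6 CPM at 10 ppm 1,2-DCB, against 70.2 to 107.7 with a median of 82.2 at its 0 ppm. The exposed 1,2-DCB libraries lay below every other library, and the difference was 1.26 ± 0.28 (edgeR adjusted p = 0.00719). Cry1 had 21.1, 21.4, 32.97 and 15.2 CPM at 10 ppm 1,4-DCB, against 11.7 to 22.15 with a median of 16.9 at its 0 ppm, and 13.9, 12.9, 6.75 and 12.3 CPM at 10 ppm 1,2-DCB, against 7.48 to 29.8 with a median of 21.65 at its 0 ppm. The exposed groups did not overlap, while each overlapped its controls. Its difference of 1.32 ± 0.34 (edgeR adjusted p = 0.0236) was called in 22 of the 24 fits that each left out 1 library, with the highest adjusted p (0.150) without 1,4-DCB animal 203.

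Dbp, the other D-box activator gene, had 5.12, 5.34, 4.94 and 69.7 CPM at 10 ppm 1,4-DCB, against 4.89 to 72.98 with a median of 21.9 at its 0 ppm, and 335.5, 168, 262.5 and 407 CPM at 10 ppm 1,2-DCB, against 3.92 to 95.2 with a median of 25.98 at its 0 ppm. The exposed 1,2-DCB libraries lay above all others, and 1,4-DCB animal 205 lay far above its group. The difference was -3.98 ± 1.25 and was not called (edgeR adjusted p = 0.107); without animal 205 it was -5.99 and passed (adjusted p = 0.013). With 1,2-DCB alone Dbp rose by 3.26 on the log2 scale (adjusted p = 0.0081). Of the 22 listed clock genes only 5 had a probe tested, so the state of the clock as a whole was not observed. Of the 6 clock probes tested 3 were called, against 1.58% of all probes. The 3 others were Dbp and both probes of Bhlhe40, a clock-controlled repressor gene. Both control groups spread over more than an order of magnitude in Dbp, which was thus variable between unexposed animals.

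Hlf, Dbp, Nfil3 and Cry1 changed in the 1,2-DCB group at 10 ppm, so the calls were also counted with the log level of Dbp as a covariate. This alternative was chosen with earlier results known. Of the 41 calls 3 were kept, among them Por at -1.05 and Cdkn1a at 2.47 (edgeR adjusted p = 0.0349 for each). The median size of the difference over the 41 probes was 0.557 with the covariate, against 1.15 without it. Dbp is itself an outcome that differed between the groups, and its part in the other differences was not tested.

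Among the 40 genes, 28 had a promoter window in the table used, with 35 windows in all. The E-box was found in 3 of the 35 windows (Arsa, Cry1 and Net1). The D-box (TTANGTAA, searched on both strands) was found in 1 (Homer2), and the ROR element in 3 (Nfil3, Stat5a and Sult1b1). Over all 32851 windows of the same length, 7.15% held the E-box, 2.32% the D-box and 2.61% the ROR element, on either strand; the motifs share no letters in the windows shown. A match describes the sequence only.

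Cdkn1a, which encodes the cell cycle inhibitor p21, carried the largest difference among the called probes. It had 10.6, 11.3, 15.7 and 7.14 CPM at 10 ppm 1,4-DCB, against 6.46 to 26.8 with a median of 11.1 at its 0 ppm, and 1.08, 2.60, 0.744 and 0.569 CPM at 10 ppm 1,2-DCB, against 9.55 to 39.6 with a median of 26.3 at its 0 ppm. The exposed 1,2-DCB libraries lay below every other library. The difference was 3.95 ± 0.62 (edgeR adjusted p = 5.97e-05), from -0.27 with 1,4-DCB and -4.22 with 1,2-DCB. Of 23 probes of p53 targets, a class to which Cdkn1a belongs, it alone was called, against 1.58% of all probes. The median of the list was 0.17. Tk1, which salvages thymidine for DNA synthesis, had 58.3, 49.55, 50.35 and 43.6 CPM at 10 ppm 1,4-DCB, against 44.4 to 135.7 with a median of 64.95 at its 0 ppm, and 164, 85.2, 117.6 and 259.5 CPM at 10 ppm 1,2-DCB, against 29.3 to 71.65 with a median of 49.2 at its 0 ppm. The exposed groups did not overlap, and the difference was -2.33 ± 0.49 (edgeR adjusted p = 0.00537). Of 67 cell cycle probes Tk1 alone was called, and on the negative side, a share near the 1.58% of all probes. The median of the list was 0.83 with 52 of 67 estimates above 0. The median of the list was 0.55 with 1,4-DCB alone and -0.32 with 1,2-DCB alone. At 10 ppm 1,4-DCB animal 203 stood above the 3 others in Plk1, a mitotic kinase gene, at 10.06 CPM against 1.11 to 1.84, and in Mki67, a proliferation marker gene, at 2.50 CPM against 0.188 to 0.328. The part of that animal in the medians was not tested.

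**Figure D3:**
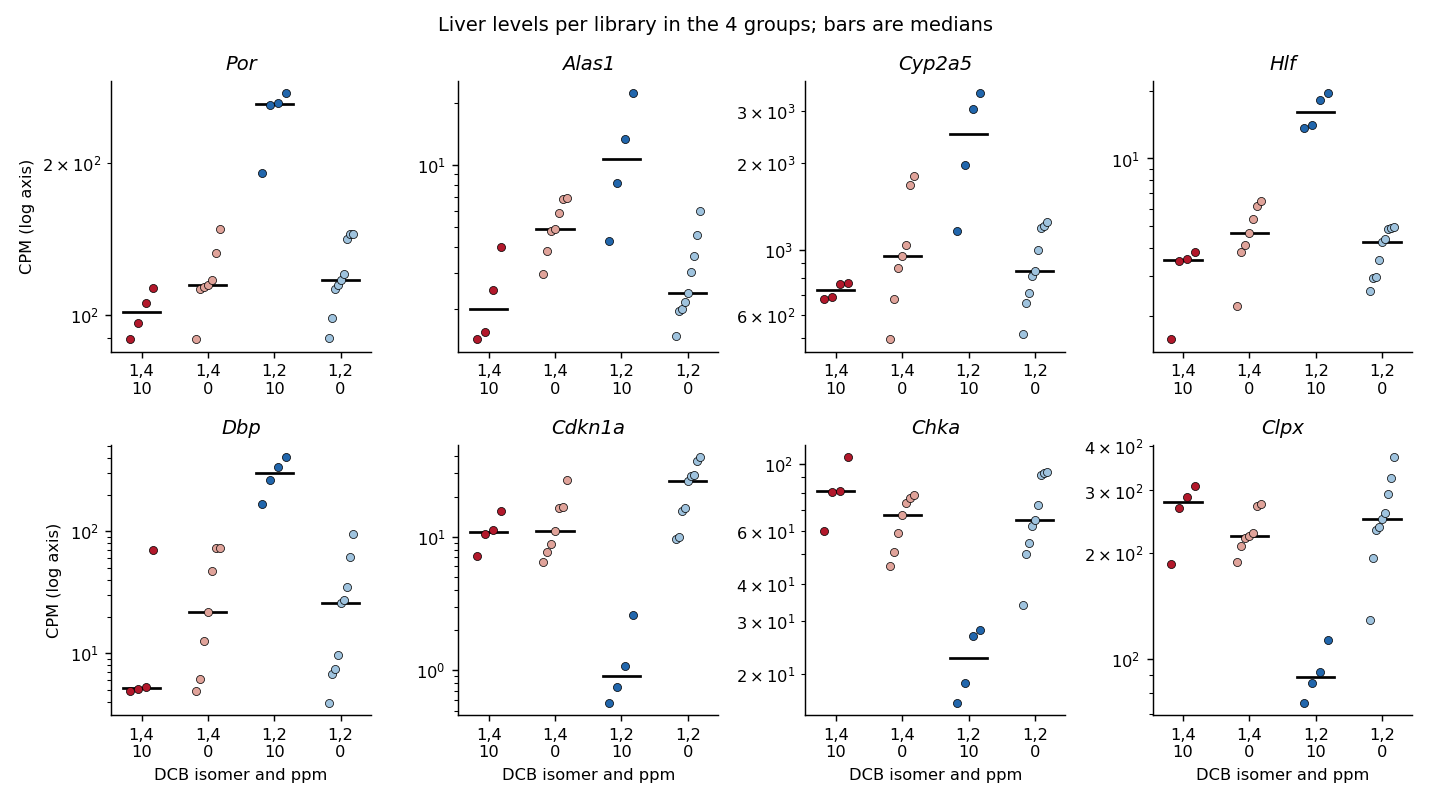
Liver level (CPM, log axis) of 8 genes in the 24 libraries, with 1 point per animal and a bar at the median of each group; the groups are, from left, 1,4-DCB at 10 and 0 ppm and 1,2-DCB at 10 and 0 ppm. The 1,2-DCB animals at 10 ppm stand above the other groups in Por, Hlf and Dbp and below them in Cdkn1a, Chka and Clpx, whereas the 1,4-DCB animals at 10 ppm overlap their 0 ppm animals in all 8 genes.

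Chka, Clpx and Net1 fell at 10 ppm 1,2-DCB and gave differences above 0. Chka, the choline kinase of phosphatidylcholine synthesis, had 81.4, 80.6, 105 and 59.9 CPM at 10 ppm 1,4-DCB, against 45.7 to 78.5 with a median of 67.7 at its 0 ppm, and 26.7, 18.6, 16.04 and 28.1 CPM at 10 ppm 1,2-DCB, against 33.9 to 93.85 with a median of 65.2 at its 0 ppm. Clpx, a chaperone of the mitochondrial ClpXP protease, had 309, 267.5, 287.5 and 186 CPM at 10 ppm 1,4-DCB, against 188 to 275 with a median of 222 at its 0 ppm, and 92.01, 113.4, 85.6 and 75.1 CPM at 10 ppm 1,2-DCB, against 128.6 to 373 with a median of 248.5 at its 0 ppm. In both genes the exposed 1,2-DCB libraries lay below every other library. The difference was 1.96 ± 0.37 for Chka and 1.66 ± 0.32 for Clpx (edgeR adjusted p = 0.00142 for each). Net1, an exchange factor for RhoA, had 291, 311, 309 and 225 CPM at 10 ppm 1,4-DCB, against 239.6 to 316 with a median of 287 at its 0 ppm, and 135.2, 153.3, 143.6 and 146.2 CPM at 10 ppm 1,2-DCB, against 180.2 to 309.5 with a median of 278 at its 0 ppm. The exposed 1,2-DCB libraries were again the lowest of the 24, with a difference of 0.87 ± 0.17 (adjusted p = 0.00142).

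Dio1, the deiodinase that converts the thyroid prohormone T4, was called by both of its probes. The first had 233, 210.2, 285 and 383 CPM at 10 ppm 1,4-DCB, against 173 to 234.5 with a median of 198 at its 0 ppm, and 145.3, 122.3, 180.4 and 114.1 CPM at 10 ppm 1,2-DCB, against 165 to 298 with a median of 228 at its 0 ppm. The exposed groups did not overlap, and the differences were 1.17 ± 0.25 and 1.04 ± 0.25 for the probes (edgeR adjusted p = 0.00537 and 0.0122). Ndrg1, a stress-responsive gene whose deposited counts were multiples of 3, gave 1.15 ± 0.25 (adjusted p = 0.00717). Tubb2a, a beta tubulin with near-identical relatives, had 820, 813, 896.5 and 402 CPM at 10 ppm 1,4-DCB, against 402 to 851 with a median of 623 at its 0 ppm, and 306, 298, 203 and 199 CPM at 10 ppm 1,2-DCB, against 360.1 to 914 with a median of 639 at its 0 ppm. The exposed 1,2-DCB libraries were the lowest, and the difference was 1.61 ± 0.37 (adjusted p = 0.00799). The nuclear receptor gene Ppard gave 1.73 ± 0.48 (adjusted p = 0.0477) and the integrin gene Itga6 gave 1.32 ± 0.37 (adjusted p = 0.0491). Of the 24 fits that each left out 1 library, 9 called Ppard and 9 called Itga6, with the highest adjusted p (0.276 for Ppard and 0.244 for Itga6) without 1,4-DCB animal 203. Itga6 was the one called probe whose 1,4-DCB estimate (0.88) exceeded its 1,2-DCB estimate (-0.44) in size.

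Foxo3, a transcription factor restrained by insulin signalling, had 105, 92.1, 83.9 and 91.1 CPM at 10 ppm 1,4-DCB, against 81.6 to 122.1 with a median of 107.2 at its 0 ppm, and 143.6, 144.6, 123.5 and 152.5 CPM at 10 ppm 1,2-DCB, against 82.5 to 103 with a median of 95.9 at its 0 ppm. The 1,2-DCB libraries at 10 ppm were the highest of the 24, and the difference was -0.74 ± 0.16 (edgeR adjusted p = 0.00537). Sds, the serine dehydratase that feeds gluconeogenesis, had 362, 348, 278 and 296 CPM at 10 ppm 1,4-DCB, against 306 to 534 with a median of 395 at its 0 ppm, and 568, 511, 449 and 514 CPM at 10 ppm 1,2-DCB, against 256 to 375 with a median of 338 at its 0 ppm. The 1,2-DCB groups did not overlap, while those of 1,4-DCB did; the difference was -0.95 ± 0.21 (adjusted p = 0.00745). Homer2, a scaffold protein gene, gave -0.66 ± 0.15 (adjusted p = 0.00799), and Inmt, an indolethylamine methyltransferase gene, gave -1.28 ± 0.31 (adjusted p = 0.0149). Inmt was called in 22 of the 24 fits without 1 library, with the highest adjusted p (0.0627) without 1,2-DCB animal 201.

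Arsa, the lysosomal arylsulfatase, had 17.1, 12.25, 7.885 and 11.5 CPM at 10 ppm 1,4-DCB, against 7.37 to 13.75 with a median of 10.2 at its 0 ppm, and 18.4, 21.4, 18.9 and 17.7 CPM at 10 ppm 1,2-DCB, against 3.71 to 9.38 with a median of 6.405 at its 0 ppm. The exposed 1,2-DCB libraries were the highest, and the difference was -1.33 ± 0.33 (edgeR adjusted p = 0.0149); it was not called without 1,4-DCB animal 203 (adjusted p = 0.0899). Hsd3b3, a steroid dehydrogenase with close relatives, had 48.45, 61.45, 46.6 and 40.2 CPM at 10 ppm 1,4-DCB, against 35.9 to 59.7 with a median of 44.9 at its 0 ppm, and 47.2, 61.1, 53.55 and 50.2 CPM at 10 ppm 1,2-DCB, against 27.1 to 33.01 with a median of 29.9 at its 0 ppm. Here the 1,2-DCB controls stood apart below the 3 other groups. The control groups differed by 0.65 (1,4-DCB minus 1,2-DCB, edgeR adjusted p = 5.5e-05), and the isomer difference was -0.76 ± 0.18 (adjusted p = 0.00969). The 8 further called probes on the negative side, from -0.60 to -0.43, included those of Syne2 (nuclear envelope), Dnajc15 (a mitochondrial co-chaperone), Haao (tryptophan breakdown), Dera (deoxyribose phosphate aldolase), Sult1b1 (a sulfotransferase), Aldh7a1 (lysine breakdown) and Sqrdl (sulfide oxidation). The remaining 7 on the positive side, from 0.53 to 1.29, were those of Mpzl1 (a cell surface receptor), Rbm12b1 (an RNA-binding protein), Stat5a (a factor of cytokine and growth hormone signalling), Pnp2 (purine salvage, with a near-identical copy), Fpgs (folate retention), St3gal1 (a sialyltransferase) and Rnf125 (a ubiquitin ligase).

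Between the control groups 15 probes were called (0.577%), and 2 of the 41, Hsd3b3 and Dera, were among them. Between the exposed groups directly 92 were called (3.54%), 33 of the 41 among them, and there compound and exposure series cannot be told apart. The isomer difference takes out only what an exposed group shares with the controls of its series. Anything else particular to an exposed group, such as its hour of collection, cannot be told apart from the isomer in the 41 calls either. Its part in them was not tested.

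Of 22 probes of interferon response genes, 1 was called in the isomer difference, against 1.58% of all probes. It was that of Cmpk2, a nucleotide kinase gene induced by interferon. All 22 estimates were above 0, with a median of 0.59 against 0.05 over all probes. Cmpk2 had 14.8, 15.3, 17.3 and 11.2 CPM at 10 ppm 1,4-DCB, against 5.64 to 16.5 with a median of 11.9 at its 0 ppm, and 5.52, 3.79, 4.14 and 6.39 CPM at 10 ppm 1,2-DCB, against 8.05 to 21.3 with a median of 9.67 at its 0 ppm. The 1,2-DCB groups did not overlap. The difference was 1.54 ± 0.42 (edgeR adjusted p = 0.0422); of the 24 fits that each left out 1 library 12 called it, with the highest adjusted p (0.124) without 1,4-DCB animal 203. Isg15 gave 0.95 (adjusted p = 0.0989) and the viperin gene Rsad2 gave 1.29 (adjusted p = 0.103), neither called. With 1,2-DCB alone 8 of the 22 fell, against 2.69% of all probes, and 0 rose. Among those that fell were Isg15 at -0.83 (edgeR adjusted p = 0.0129) and Rsad2 at -1.06 (adjusted p = 0.0226).

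All 4 immune cell marker lists had their lowest group median at 10 ppm 1,2-DCB. The same held for the red cell, stellate cell and fibroblast, and pancreas lists, but not for the other lists. The red cell median was 5829 CPM there, against 9121 at 10 ppm 1,4-DCB, 10690 at 0 ppm 1,4-DCB and 11050 at 0 ppm 1,2-DCB. The summed level of 8 T, NK and B cell marker probes was 3.69 to 9.16 CPM at 10 ppm 1,4-DCB. It was 4.355 to 9.05 at 0 ppm 1,4-DCB, 3 to 4.04 at 10 ppm 1,2-DCB and 4.40 to 13.1 at 0 ppm 1,2-DCB. In each group except 0 ppm 1,4-DCB, 1 of these probes was at 0 throughout. The sum of 10 macrophage probes was 699 to 806 CPM at 10 ppm 1,4-DCB, 690.1 to 873 at 0 ppm 1,4-DCB, 547 to 796 at 10 ppm 1,2-DCB and 673 to 2619 at 0 ppm 1,2-DCB. The sum of 6 neutrophil probes was 8.00 to 10.5 CPM at 10 ppm 1,4-DCB and 4.11 to 36.5 at 0 ppm 1,4-DCB. It was 6.51 to 12.6 at 10 ppm 1,2-DCB and 5.94 to 249.5 at 0 ppm 1,2-DCB. At 10 ppm, 2 of these probes were at 0 throughout with 1,4-DCB and 3 with 1,2-DCB, against 0 in both control groups. The exposed groups held 4 libraries each and the control groups 7 and 9. A probe near the floor is more readily at 0 in every library of a smaller group, so these counts are not comparable between groups. The sum of 3 probes of MHC class II presenting cells was 360.4 to 535 CPM at 10 ppm 1,4-DCB, 400.1 to 898.8 at 0 ppm 1,4-DCB, 365.8 to 649.7 at 10 ppm 1,2-DCB and 525.2 to 1888 at 0 ppm 1,2-DCB. The highest macrophage and neutrophil sums of the 1,2-DCB controls came from animal 4, and the part of these cells in the interferon result was not tested. Without animal 4 the count of all calls was 46, of which 40 were among the 41. Of 3 neutrophil probes tested 0 were called by edgeR in the isomer difference, and S100a8, a calprotectin subunit gene, gave 1.65 (adjusted p = 0.378).

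The other lists held few calls. Among 19 glucocorticoid and fasting response probes 1 was higher (Cdkn1a) and 2 were lower (Foxo3 and Sds), against 0.807% and 0.769% of all probes. By edgeR 0 were called of 25 PPARA target probes (median -0.05), 35 inflammation probes (0.14), 15 cholesterol synthesis probes (-0.07), 7 fatty acid synthesis probes (-0.55), 10 bile acid probes (-0.13) and 18 sex- and growth hormone-dependent probes (0.34). Just outside the threshold lay Cyp2c29, a CAR-responsive P450 gene, at -0.97 (edgeR adjusted p = 0.052) and Abcb1a, an efflux pump gene, at -1.01 (adjusted p = 0.0547). For 1495 of the 2601 probes the unadjusted 95% interval of the difference lay within 1 log2 unit of 0 on either side. The median width on each side of the estimate was 0.555, so smaller differences were often not detectable with these animals. Larger ones could also miss the adjusted threshold.

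At 1 ppm, the other shared concentration, edgeR and DESeq2 each called 0 probes in the isomer difference, and 52 (2%) had an unadjusted p under 0.05. Of the 23 libraries of that contrast only 2 were from 1 ppm 1,2-DCB. With the excluded liver libraries put back, edgeR called 5.61% of the probes. The difference at 10 ppm minus that at 1 ppm was called in 0 probes by edgeR and in 11 by DESeq2, and 5.84% of the probes had an unadjusted p under 0.05. Nearest to the threshold were Cdkn1a at 3.38 (edgeR adjusted p = 0.0505) and Por at -1.01 (adjusted p = 0.0641). A change in the isomer difference between 1 and 10 ppm was thus not called by the main test.

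The other concentrations share the 0 ppm animals of their series and do not match between isomers above 10 ppm. Calls among the 41 probes began at 150 ppm with 1,4-DCB and at 10 ppm with 1,2-DCB. These starts follow in part from how the 41 were picked, for a difference at 10 ppm among these libraries. Over all probes, calls with 1,4-DCB began at 50 ppm (20 probes). With 1,4-DCB, the members called higher and lower numbered 0 and 0 at 1, 10 and 50 ppm, 3 and 0 at 150 ppm and 10 and 7 at 400 ppm. Over all probes edgeR called 0 at 1 ppm (DESeq2 also 0, and 5.42% at an unadjusted p under 0.05), 0 at 10 ppm, 0.769% at 50 ppm, 5.96% at 150 ppm and 31.6% at 400 ppm. With 1,2-DCB, the members called higher and lower numbered 0 and 0 at 1 ppm, 20 and 19 at 10 ppm, 18 and 20 at 30 ppm, 13 and 10 at 100 ppm and 9 and 18 at 250 ppm. Over all probes edgeR called 0 at 1 ppm (DESeq2 also 0, and 2.08% at an unadjusted p under 0.05), 5.34% at 10 ppm, 11.7% at 30 ppm, 18.8% at 100 ppm and 49.8% at 250 ppm.

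The estimate of Por on the log2 scale was -0.25, -0.22, -0.08, -0.12 and 0.50 at 1, 10, 50, 150 and 400 ppm 1,4-DCB, and -0.01, 1.04, 1.04, 0.48 and 0.54 at 1, 10, 30, 100 and 250 ppm 1,2-DCB. That of Cdkn1a was 0.89, -0.27, -0.43, -0.39 and 0.50 with 1,4-DCB, and 0.31, -4.22, -3.93, -1.26 and 0.47 with 1,2-DCB. Its estimate was far below 0 at 10 and 30 ppm 1,2-DCB, nearer 0 at 100 ppm and above 0 at 250 ppm. That of Hlf was -0.50, -0.59, 0.39, 0.15 and 0.93 with 1,4-DCB, and -0.38, 2.05, 2.31, 1.28 and 1.28 with 1,2-DCB. That of Alas1 was -0.10, -1.15, 0.26, -1.35 and -0.67 with 1,4-DCB, and -0.22, 1.98, 1.66, -0.38 and -0.05 with 1,2-DCB. Dbp was called at no 1,4-DCB concentration and at each 1,2-DCB concentration from 10 ppm (3.26, 3.19, 2.14 and 1.70). Cyp2b10 had another order: it was called at 150 ppm (2.50) and 400 ppm (4.29) 1,4-DCB and at 100 ppm (0.84) and 250 ppm (1.85) 1,2-DCB, and not at 10 ppm of either isomer.

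**Figure D4:**
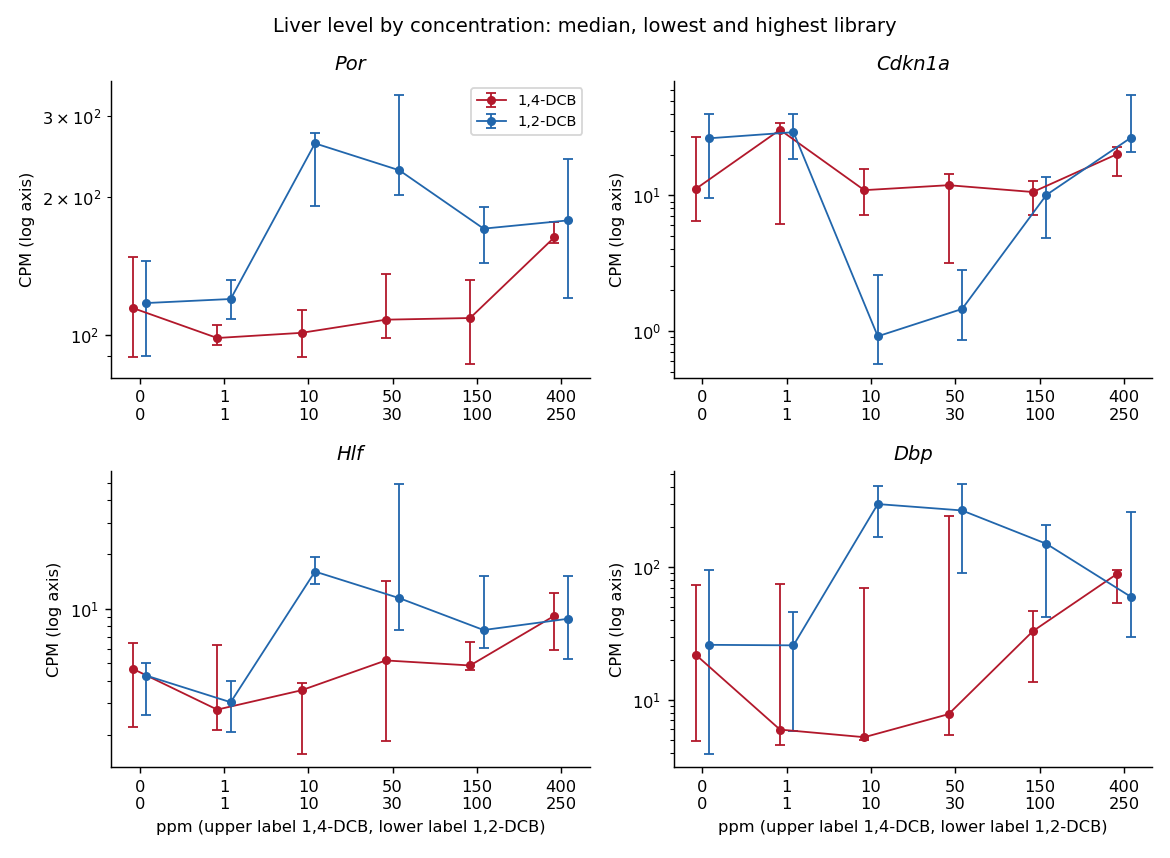
Liver level (CPM, log axis) of Por, Cdkn1a, Hlf and Dbp by concentration for 1,4-DCB (upper axis labels) and 1,2-DCB (lower axis labels), with points at the median and bars from the lowest to the highest library of the group. The isomers part at 10 ppm, where the median of Dbp was 5.23 CPM with 1,4-DCB and 299 CPM with 1,2-DCB, and come closer at the highest concentrations, which differ between the isomers.

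The same contrast was taken in the other tissues of the same exposure groups, which the choice of probes did not use. It rested on 30 libraries each in heart, lung and ovary and 19 in kidney, against 24 in liver. The animals with a used library thus differed in part between tissues. The isomer difference was called in 28 probes in heart (1.14%), 6 in kidney (0.22%), 10 in lung (0.363%) and 0 in ovary, where 234 (8.63%) had an unadjusted p under 0.05 and DESeq2 called 1. Of the called liver probes that could be tested, 3 of 37 were called in heart with the sign of the liver, 0 of 41 in kidney, 2 of 40 in lung and 0 of 38 in ovary. They were Hlf in heart (-1.07, edgeR adjusted p = 0.0163) and lung (-1.97, adjusted p = 0.00379), Nfil3 in heart (0.98, adjusted p = 0.00919) and lung (1.19, adjusted p = 0.0249), and Cdkn1a in heart (1.70, adjusted p = 0.0028). Dbp was called in heart (-2.41, adjusted p = 0.00319) and lung (-2.67, adjusted p = 0.0249), and gave -2.28 in kidney (adjusted p = 0.168) and -1.20 in ovary (adjusted p = 0.145). The calls shared with liver were thus clock genes and Cdkn1a.

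Por, Chka, Clpx and Net1 were near 0 elsewhere. The isomer difference of Por was -0.16 in heart, -0.14 in kidney, -0.39 in lung and 0.15 in ovary, and that of Chka was -0.00, -0.07, -0.07 and 0.34 in the same order, none of them called. In joint fits of liver with another tissue the difference itself was called in 4 of the member probes for heart, 5 for kidney, 10 for lung and 12 for ovary, against 4 (0.143%), 8 (0.283%), 13 (0.45%) and 16 (0.541%) of all probes. Chka differed from liver in every one of the 4 tissues, Por in kidney and ovary, and Cdkn1a in kidney and lung. The probes were taken for their liver values, so these counts lean towards a difference, and libraries of 1 animal were treated as independent.

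**Figure D5:**
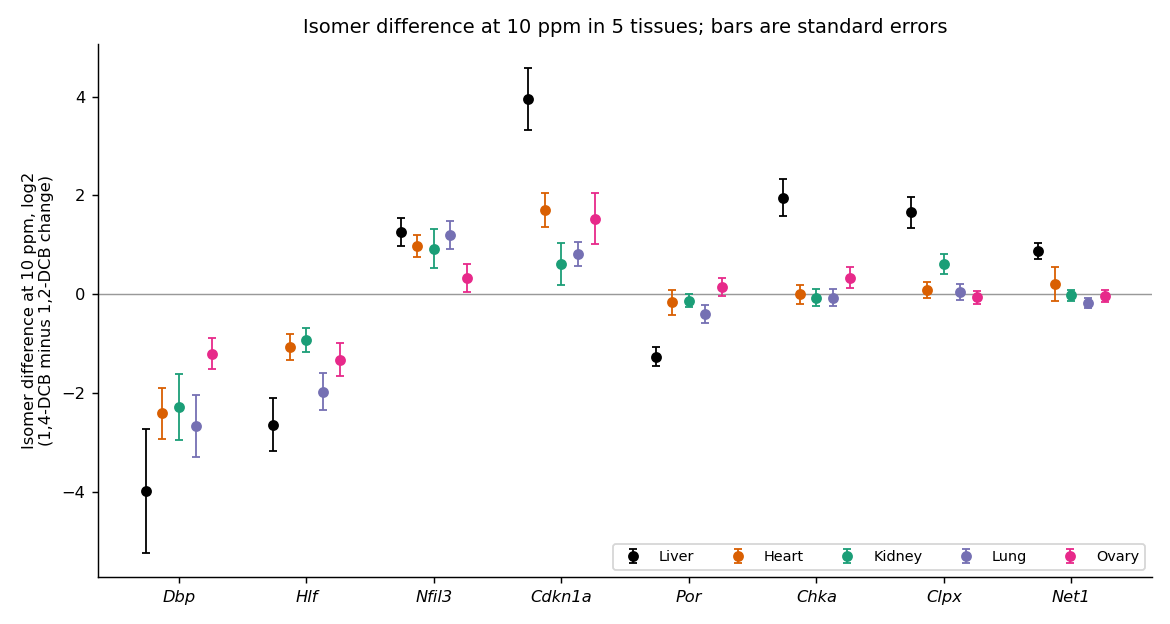
Isomer difference at 10 ppm (log2, 1,4-DCB change minus 1,2-DCB change, vertical axis) of 8 genes in liver, heart, kidney, lung and ovary, with bars for the standard error. Dbp, Hlf, Nfil3 and Cdkn1a lie on the same side of 0 in all 5 tissues, whereas Por, Chka, Clpx and Net1 stand far from 0 in liver and mostly near 0 elsewhere.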

How the data were processed

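The deposited values are whole-number read counts per probe, labelled by the authors as adjusted for attenuation. The aligner was Bowtie 1.3.1 per the submitters' processing notes, run against a reference not given in the sources used here. For 59 probes every count was a multiple of a factor from 2 to 21. It was read here as the attenuation factor of the probe, which the sources used here do not list. A median of 63.4% of a library's adjusted counts fell on these probes. Within groups 69 pairs of libraries were compared and 0 were identical. From the deposited counts, changes were fitted in R 4.3.3 with edgeR 4.0.16 (TMM scaling, filterByExpr, quasi-likelihood test, two-sided) over the 61 used liver libraries in 12 groups, with p-values adjusted over 2601 probes and a prior count of 2 for log2 values. SE is the estimate divided by the root of its F. Each animal gave 1 liver library, so the spread is between animals. Reads carry no molecular identifiers, and no interval here rests on counting alone.

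Named genes were up to 15 probes in each direction by smallest adjusted p among the calls with a mean of at least 20 counts, up to 3 members of each pathway list by smallest p, and a set of fixed markers; genes just outside the threshold are named to show the limit, and some called genes are not reported here. Members, lists and markers were chosen with earlier results of these data known. Promoter windows are from RefSeq (GRCm38.p6), matched by symbol. Alternatives were another scaling, other count filters, other sets of libraries, undoing the attenuation, covariates for depth and Dbp, DESeq2, a replicate block and leaving out each library.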

Additional observations from a re-analysis of the deposited data

Results flagged for a closer look

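Of 208 sets of 1 probe and 1 group looked at, 11 held a library far from the others of its group, and chance alone flags about 1 in 20 such sets. At 10 ppm 1,4-DCB, animal 203 was low in Hlf (1.577 CPM) and high in Rsad2 (20.47), animal 205 was low in Mpzl1 (17.63) and Tubb2a (402.2) and high in Dbp (69.72), and animal 201 was high in Cyp1a2 (230.1). At 0 ppm 1,4-DCB, animal 3 was high in Cyp7a1 (148.3 CPM). At 10 ppm 1,2-DCB, animal 204 was high in the other Dio1 probe (162.6 CPM), animal 201 in Fpgs (126.2) and animal 202 in Cyp1a2 (265.4). At 0 ppm 1,2-DCB, animal 4 was high in S100a8 (221.8 CPM).

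The isomer difference itself differed between liver and another tissue in 31 cases among the called probes, as tested by the interaction in joint edgeR fits at an adjusted p under 0.05. All values are liver minus the other tissue on the log2 scale. Against heart they were 1.89 for Chka, 1.52 for Clpx, -1.39 for Gstm2 and 1.24 for Ndrg1. Against kidney they were -1.16 for Por, 3.33 for Cdkn1a, 2.00 for Chka, 0.86 for Net1 and 0.79 for Rbm12b1, an RNA-binding protein gene. Against lung they were 3.115 for Cdkn1a, 1.99 for Chka, 1.59 for Clpx, 1.01 for Net1, -2.55 for Tk1, -1.35 for Gstm2, -2.95 for Alas1, 1.40 for Ndrg1, 0.69 for Rbm12b1 and 1.85 for Ppard. Against ovary they were -1.43 for Por, 1.60 for Chka, 1.72 for Clpx, 0.90 for Net1, -2.70 for Tk1, -1.62 for Gstm2, 1.40 for Mpzl1, -3.91 for Alas1, 1.63 for Tubb2a, -1.33 for Dnajc15, 1.42 for Cry1 and 1.53 for Itga6.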

How the results depend on the processing

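Counts of calls are given here as a share of the probes tested. The isomer difference at 10 ppm (41 calls, 1.58%) stayed at 1.23% to 1.77% with another scaling, no filter, the 4 groups alone, the attenuation undone, a depth covariate and a replicate block; the block gave 46 calls (1.77%), of which 28 were among the 41. With a mean of at least 100 counts the 43 calls were 2.43%, of fewer probes tested. All liver libraries gave 7 calls (0.278%). Dbp as a covariate gave 7 (0.269%), with Cyp7a1, Adh1, Notch1 and Tnfaip3 outside the 41. DESeq2 called 62 (2.89%), all 41 included. Without single libraries the share was 1.04% to 2%, lowest without 1,2-DCB animal 201 or 1,4-DCB animal 203, both at 10 ppm, and 20 of the 41 probes were called in every one of the 24 fits. Other than by fewer probes tested, the cause of these moves was not tested.

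For 1,2-DCB against its 0 ppm (5.34%) the share was 9.26% with at least 100 counts, 1.03% with all libraries, 2.88% with Dbp, 8.57% with DESeq2 and 2.62% to 5.96% without single libraries, with 2.62%, 3.15%, 3.38% and 3.22% without exposed animals 201, 202, 204 and 205. For the exposed groups against each other (3.54%) it was 5.81% with at least 100 counts, 0.716% with all libraries, 0.462% with Dbp, 1.73% with depth, 1.81% with the replicate block, 6.04% with DESeq2 and 1.38% to 4.64% without single libraries, with 1.38% without 1,4-DCB animal 203 and 2.04%, 2.15% and 2.15% without 1,2-DCB animals 201, 204 and 205. For the controls against each other (0.577%) it was 0.959% with at least 100 counts, 0.0398% with all libraries, 1.54% with DESeq2 and 0.346% to 0.806% without single libraries, lowest without 1,4-DCB animal 10. For 1,4-DCB against its 0 ppm edgeR called 0 without any single library.

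At 1 ppm (0 calls) all libraries gave 5.61%. For 10 ppm minus 1 ppm (0 calls) the share was 0.0384% with another scaling, 0.0332% without a filter, 0.226% with at least 100 counts, 4.81% with all libraries, 0.0769% with the attenuation undone, 0.0384% with depth and 0.423% with DESeq2. With all libraries edgeR called 0 in kidney and 0 for liver minus heart, and 0.0719%, 0.106% and 0.104% for liver minus kidney, lung and ovary. Ephx1, at 0.00, turned to -0.014 with another scaling, -0.0011 with the 4 groups alone, -0.068 with the block, -0.014 with DESeq2 and -0.071 to 0.058 without single libraries. Dbp passed with DESeq2 (-3.97, adjusted p = 0.0431), with the block (-5.10, edgeR adjusted p = 0.0181) and without 1,2-DCB control 4 (-4.42, edgeR adjusted p = 0.0496).

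Deviations of same-numbered animals of the series correlated at -0.054 to 0.124. At 10 ppm the best match in the 1,2-DCB series had the same number for animals 202 and 205, but not for 201. Among the controls compared it did so for animal 3 only. These values cannot settle whether the numbers pair the animals, and the main fit did not pair them. The block could not be fitted for a concentration against its own 0 ppm. With 4 exposed animals in each series, differences under about 0.555 on the log2 scale were often within the interval.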
